A study of Nannochloropsis oceanica with 6 samples.

Results

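Glutamine synthetase, glutamate synthase and urease bring inorganic and urea nitrogen into amino acids, and their transcripts were measured by RNA sequencing in the oil-accumulating marine microalga Nannochloropsis oceanica. The genes were chosen by identifier from the deposited annotation and are 3 of 10481 genes in each library: GLN1-2 (NO07G03230), an NADH-dependent glutamate synthase without a gene symbol (NO08G04050) and the urease URE (NO02G06110). All cultures came from cells of the IMET1 strain grown on nitrate to an optical density of 2.5 at 25 °C under continuous light with added carbon dioxide. After washing, 3 cultures were placed in complete f/2 medium (nitrogen repletion, NR) and 3 in nitrogen-free f/2 (nitrogen deprivation, ND), and cells were harvested 72 h later. Library totals ran from 3972986 to 5693513 estimated counts, and the comparison asks how the entry of ammonium and urea nitrogen into amino acids differs at the transcript level between deprived and fed cells.

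Glutamine synthetase uses ATP to join ammonium to glutamate, which gives glutamine. Glutamate synthase then moves the amide nitrogen of glutamine to 2-oxoglutarate and yields a pair of glutamate molecules, of which one returns to glutamine synthetase and the other supplies the remaining amino acids. Urease, a nickel enzyme, splits urea into ammonium and carbon dioxide, so that urea from the medium or from arginine and purine breakdown can enter the same cycle. In plants and algae with both forms, glutamate synthase draws electrons either from NADH or from ferredoxin, the latter reduced by photosynthesis.

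All 3 transcripts were higher in deprived cells. Urease rose most, 4.15 times, the NADH glutamate synthase rose 2.79 times and GLN1-2 rose 1.74 times. Of 9329 genes tested with edgeR's quasi-likelihood test at an adjusted p of 0.05, 35.7% were higher in ND, 35.5% were lower and 71.2% differed in either direction, so a rise by itself was common in these libraries. A rise of at least 2 times, which urease and the glutamate synthase showed, was found for 9.39% of the genes. Every ND library lay above every NR library for all 3 genes, as it did for 37.2% of all genes tested. These values are normalised CPM (counts scaled to library size and composition). They are shares of the RNA sequenced, so a higher share and more RNA per cell cannot be told apart.

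**Figure D1:**
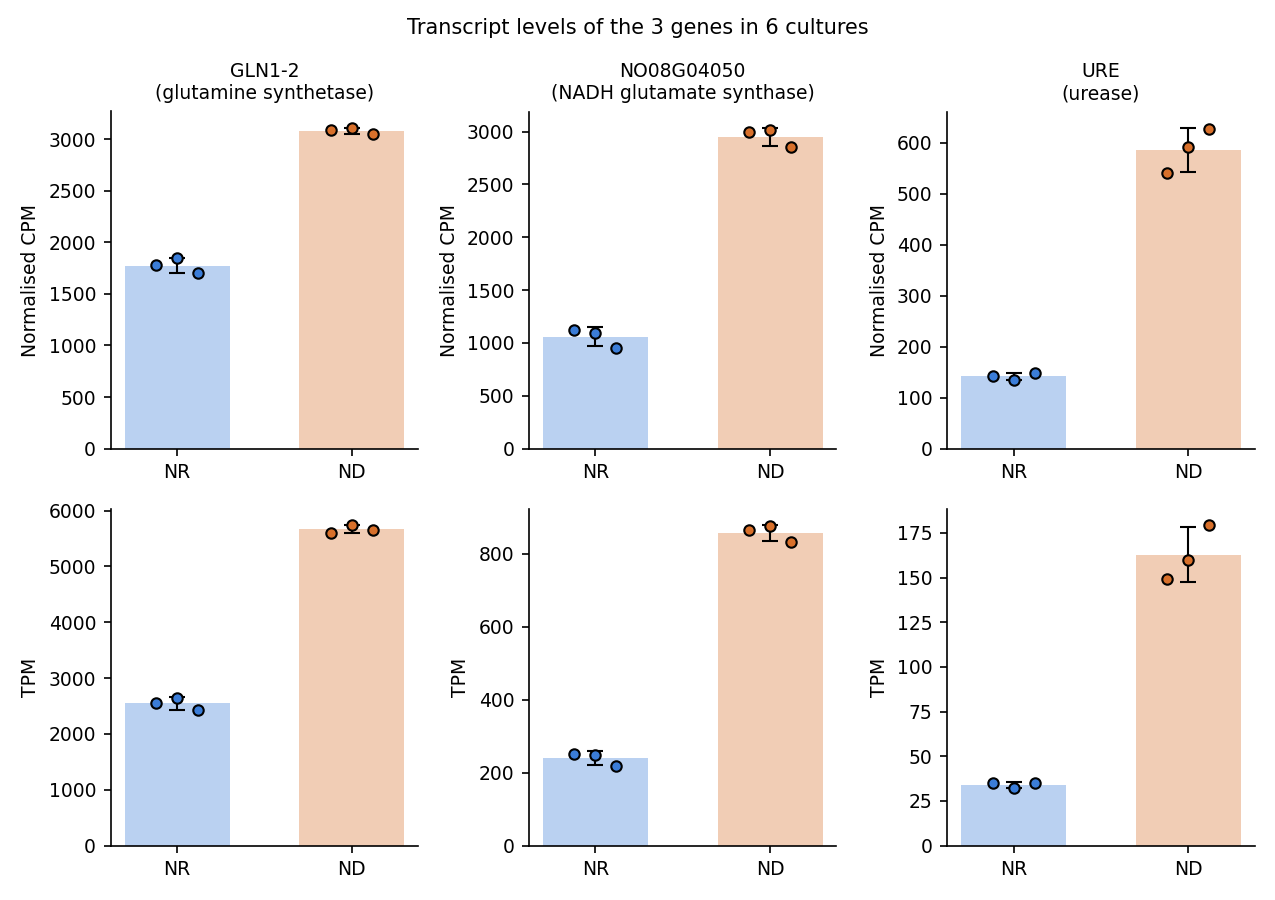
Levels of the 3 genes in the 6 cultures, as normalised CPM (top row) and TPM (bottom row), with points for cultures, bars for means and error bars for SD (n = 3). The ND cultures of GLN1-2 sit between 3054 and 3112 CPM and those of urease between 541 and 627 CPM, all above the NR cultures on both scales.

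GLN1-2 is the most abundant of the 3 and the enzyme at which ammonium enters. It is named after a cytosolic isozyme of rice by sequence similarity, and its location in the alga was not measured. The deposited annotation also places it with the glutamine synthetases of KEGG and KOG, whereas its first match in the NR protein database is described as a gamma-glutamylcysteine synthetase. Its level was 1776, 1850 and 1699 CPM in NR cultures 1 to 3, against 3087, 3112 and 3054 CPM in ND cultures 1 to 3. The groups were separated by a gap much wider than the spread within either, with means of 1775 ± 75.2 and 3085 ± 28.9 CPM (SD, n = 3). The log2 fold change was 0.80 ± 0.04 (SE), with an edgeR adjusted p of 7.68e-13. Scaled by library totals alone it was 1.11, above a doubling, since that scaling moved the median of all genes from 0.02 to 0.34. On the length-scaled TPM scale GLN1-2 held 2546 ± 110 in NR and 5667 ± 73.4 in ND, and it moved from rank 32 to rank 7 among all genes by mean TPM. All of its estimated counts were whole numbers, so none of its reads was divided with another model.

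The NADH glutamate synthase NO08G04050 is annotated by its similarity to an amyloplast enzyme of alfalfa. Its level was 1124, 1097 and 955 CPM in NR cultures, against 2993, 3012 and 2855 CPM in ND cultures. Within each condition the third culture was the lowest, and the ND cultures were still far above all NR cultures. The means were 1059 ± 90.5 and 2953 ± 85.5 CPM (SD, n = 3), and the log2 fold change was 1.48 ± 0.05 (edgeR adjusted p = 1.07e-15). In TPM the gene went from 239 ± 18.9 to 857 ± 22.3 and from rank 769 to rank 105.

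Urease was the least abundant and had the largest change. It was at 142, 134 and 149 CPM in NR cultures, against 541, 593 and 627 CPM in ND cultures. The ND cultures spread more widely than the NR cultures, yet the lowest of them was well above the highest NR culture. Means of 142 ± 7.64 and 587 ± 43.4 CPM gave a log2 fold change of 2.05 ± 0.06 (edgeR adjusted p = 6.82e-17). In TPM urease went from 34.1 ± 1.77 to 163 ± 15.5 and from rank 5230 to rank 1291. By size of rise it was 128th of the 9329 genes, the glutamate synthase 355th and GLN1-2 1331st.

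**Figure D2:**
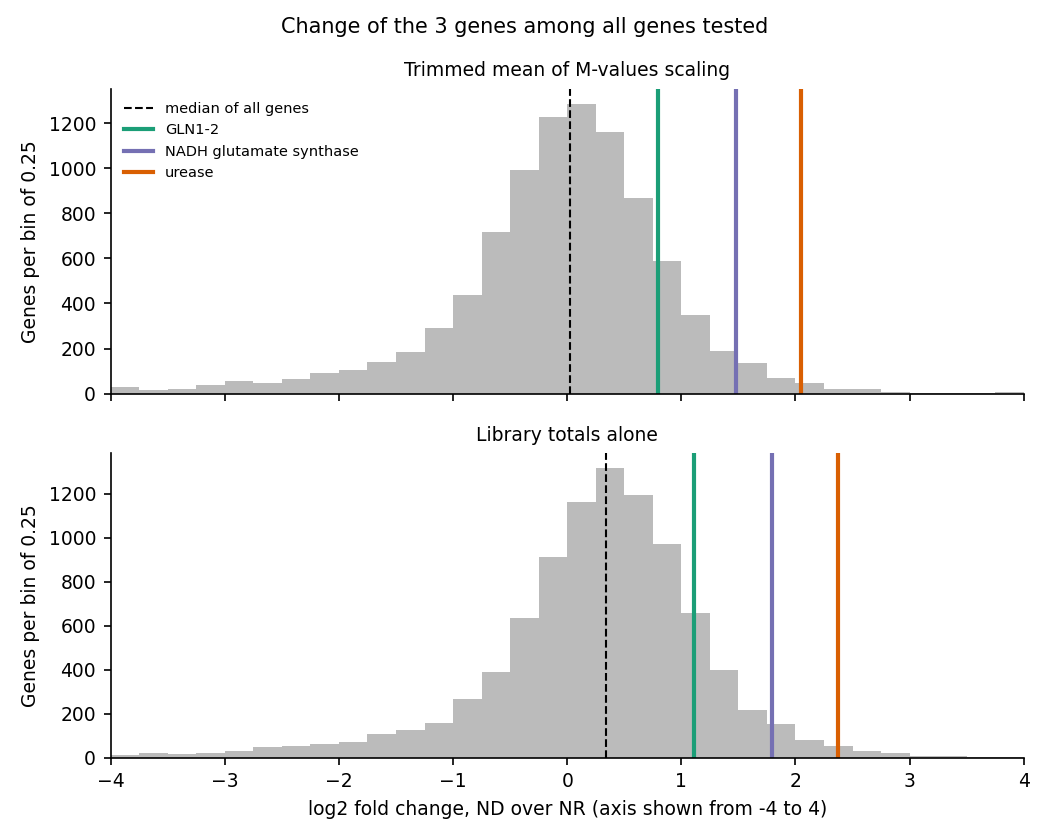
Number of genes by log2 fold change of ND over NR in bins of 0.25, under composition scaling (top) and library totals alone (bottom), with lines for the 3 genes and a dashed line for the median of all genes. The whole distribution and the 3 genes shift together between the scalings, and GLN1-2 crosses a log2 change of 1, from 0.80 to 1.11.

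The authors' deposited table of ND against NR, which lists 2057 genes with an absolute log2 change above 1, holds 2 of the 3. In the authors' deposited table the log2 change is 1.47 for the glutamate synthase and 2.04 for urease, and GLN1-2 is not listed.

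Together the 3 genes made up 0.269% to 0.293% of all TPM in NR and 0.662% to 0.678% in ND. Most of this was GLN1-2, with 0.243% to 0.265% in NR and 0.560% to 0.575% in ND. TPM is scaled for length, so the genes can be set against each other within a library. The NADH glutamate synthase stood at 0.0985, 0.0940 and 0.0895 of the TPM of GLN1-2 in NR cultures, against 0.154, 0.152 and 0.147 in ND cultures. On the log2 scale this ratio was higher by 0.69 in ND, with means of -3.41 ± 0.07 and -2.73 ± 0.03 (SD, n = 3). The ratio of urease to GLN1-2 went from -6.22 ± 0.13 to -5.12 ± 0.13 on the log2 scale, a difference of 1.10. Urease relative to the glutamate synthase went from -2.81 ± 0.17 to -2.40 ± 0.17, a difference of 0.41. With estimated counts, not scaled for length, these differences were 1.25 for urease over GLN1-2 and 0.57 for urease over the glutamate synthase. For none of the TPM ratios between the 3 genes did the conditions overlap. Each had an exact two-sided permutation p of 0.1, the smallest that 3 cultures against 3 allow. The adjusted permutation p of each over the 7 ratios examined was 0.117, so none passed the test. How many other gene pairs lack overlap was not counted, here or for the ratios below.

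**Figure D3:**
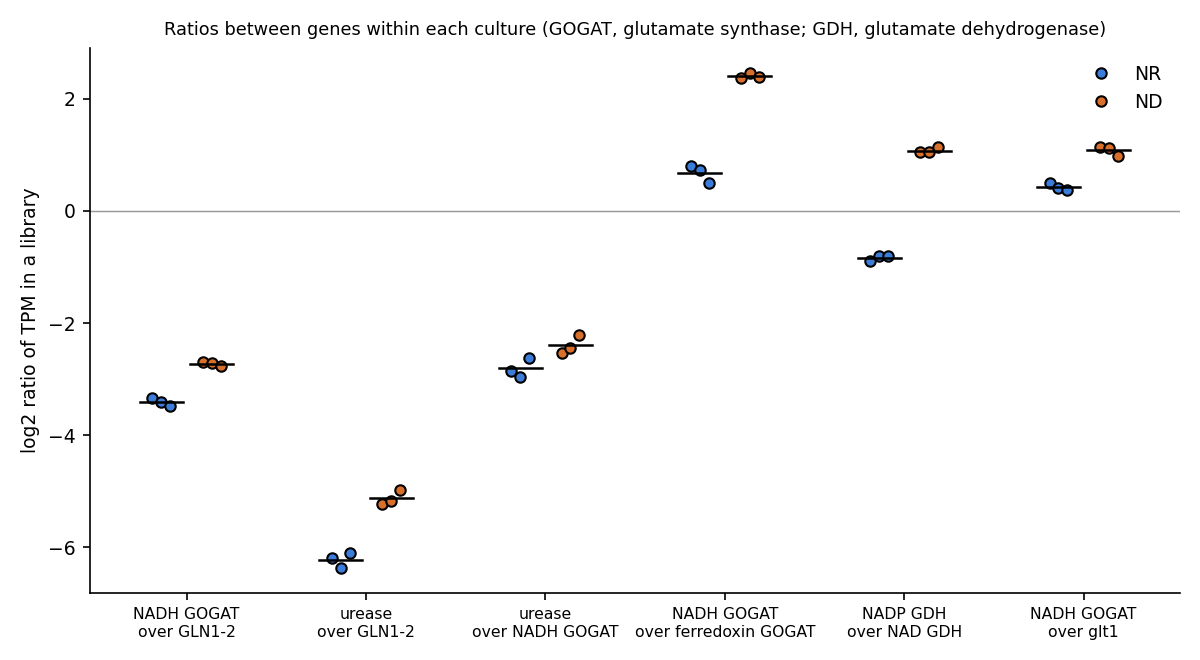
Log2 ratios of TPM between pairs of genes in each culture, with points for cultures and lines for means (n = 3). In each of the 6 pairs shown all ND cultures lie above all NR cultures, by the widest margin for NADP over NAD glutamate dehydrogenase, from -0.83 to 1.08. Of the 7 ratios examined, urease over NO02G06090 is not shown, and its conditions overlapped (-0.70 to -0.28 in NR, -0.35 to -0.22 in ND). The pairs with gltS, with glt1 and between the dehydrogenases were chosen after their values were seen.

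Other genes of ammonium and urea assimilation were matched by phrases in their Swiss-Prot descriptions, each beginning at the start of a word. With the 3 genes included, 34 genes were found and all were tested. Of these 23 were higher in ND, 8 were lower and 3 did not pass, against 3333 higher (35.7%) and 3312 lower (35.5%) of all 9329. With library totals alone the split was 25 higher and 3 lower in the list and 5075 higher and 2149 lower over all genes. With URE and the adjacent models that share its reads counted as 1 gene, and a pair of asparaginase models likewise, 22 were higher and 7 lower. Of those adjacent models only NO02G06090, also annotated as urease, is in the list besides URE. The NADH glutamate synthase genes NO08G04050 and NO08G04040 stayed separate in the count of 22 and 7. Without the 3 genes, 20 of 31 were higher and 8 lower, with a median log2 change of 0.45 (all genes 0.02).

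**Figure D4:**
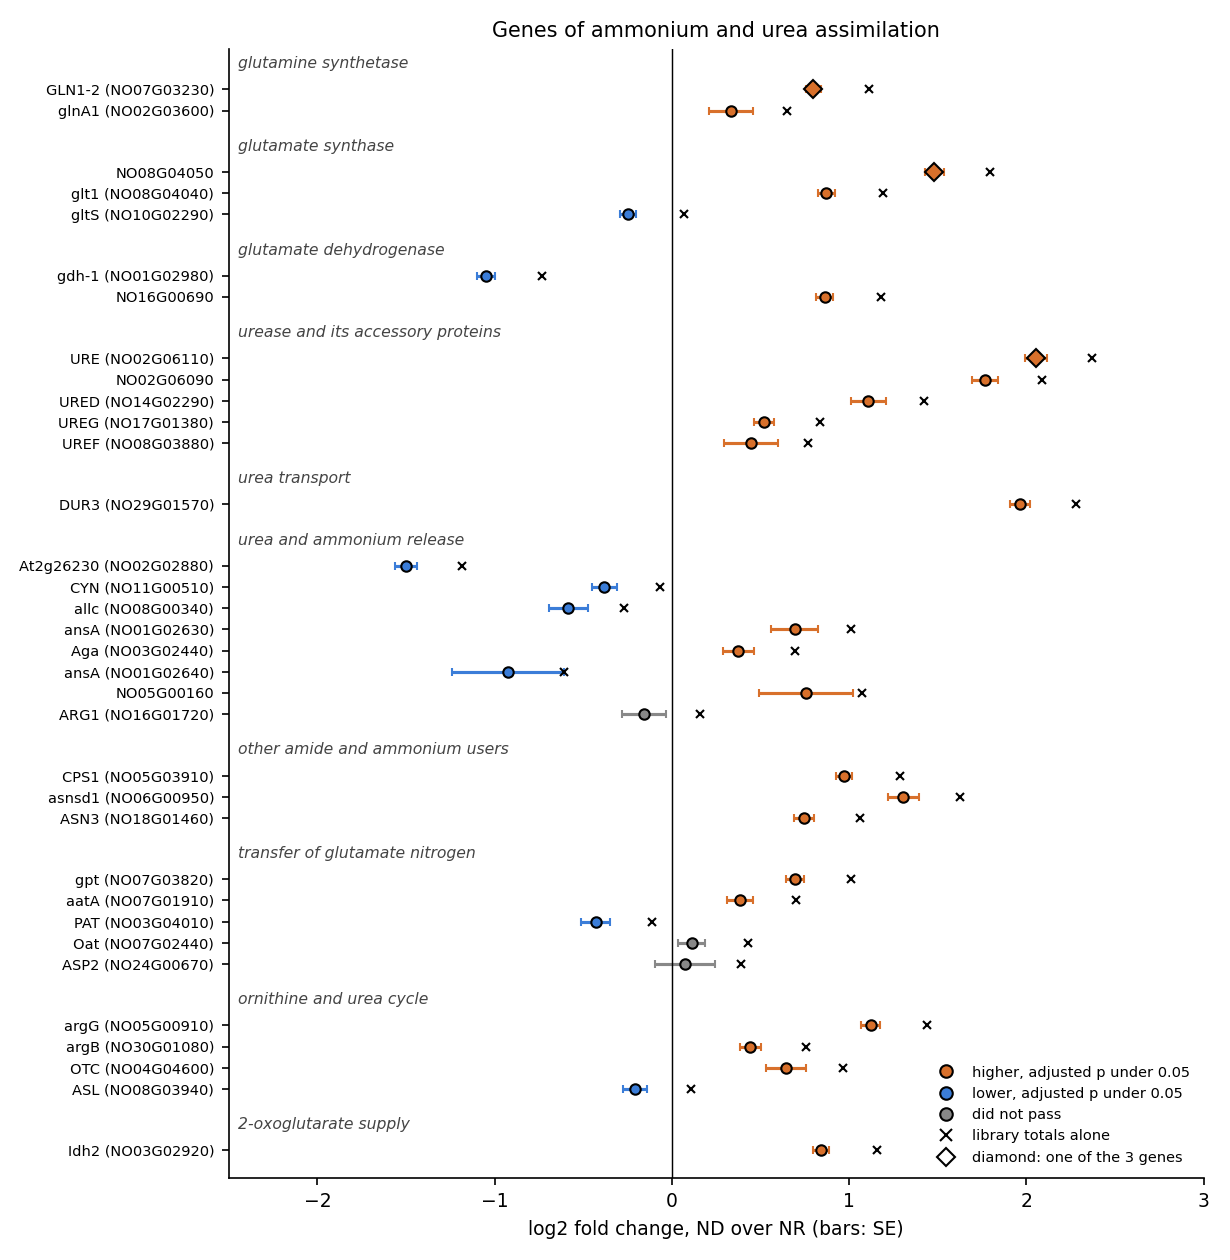
Log2 fold change of ND over NR with SE for the 34 genes, ordered by role, with diamonds for GLN1-2, the NADH glutamate synthase and urease and crosses for the change with library totals alone. All genes of the urease and urea transport groups lie above 0 under both scalings, whereas gltS lies below 0 only under the composition scaling.

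Glutamine synthetase was represented by 1 further gene. The level of glnA1 (NO02G03600), matched to a glutamine synthetase of Dictyostelium, was 20.6 ± 0.233 CPM in NR and 26.0 ± 1.56 CPM in ND, and it rose by a log2 change of 0.33 ± 0.12 (edgeR adjusted p = 0.0231). In TPM, per length, GLN1-2 was the more abundant glutamine synthetase transcript in both conditions, as glnA1 had a mean of 23.8 ± 0.289 TPM in NR and 38.8 ± 2.28 TPM in ND (SD, n = 3).

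Of the 3 glutamate synthase genes 2 rose and 1 fell, against 35.7% higher and 35.5% lower of all genes tested. A second gene annotated as NADH-dependent, glt1 (NO08G04040), adjacent to NO08G04050 by the order of gene IDs, rose from 420 ± 17.7 to 769 ± 17.4 CPM, a log2 change of 0.87 ± 0.05. Both match the same alfalfa protein, and KEGG places NO08G04050 with the eukaryotic enzyme (GLT1) and glt1 with a small subunit (gltD). In ND culture 1 their estimated counts were 3658.31 and 14568.69, which sum to a whole number, and in the other cultures both were whole. Summed as 1 gene they rose from 1479 ± 99.8 to 3722 ± 72.2 CPM, a log2 change of 1.33 ± 0.05. Counted that way, 1 glutamate synthase gene rose and 1, the ferredoxin-dependent gene described next, fell. The ratio of NO08G04050 to glt1 in TPM was 1.41, 1.32 and 1.29 in NR cultures, against 2.22, 2.17 and 1.98 in ND cultures, without overlap (exact p = 0.1). The ferredoxin-dependent gene gltS (NO10G02290), named after an enzyme of Synechocystis, went from 552 ± 7.70 to 465 ± 14.8 CPM, a log2 change of -0.25 ± 0.05 (edgeR adjusted p = 7.28e-05). That fall was lost with library totals alone, where the change was 0.07 (adjusted p = 0.16 in edgeR). The TPM of NO08G04050 was 1.73, 1.66 and 1.42 times that of gltS in NR cultures, against 5.16, 5.54 and 5.22 times in ND cultures. This ratio does not depend on the scaling between libraries, did not overlap between conditions and had an exact p of 0.1, as above.

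The glutamate dehydrogenases, which join or release ammonium from glutamate in 1 step, moved in opposite directions. NO16G00690, annotated as NADP-specific, rose from 389 ± 18.8 to 707 ± 7.62 CPM (log2 change 0.86 ± 0.05). In contrast gdh-1 (NO01G02980), annotated as NAD-specific, fell from 597 ± 31.1 to 289 ± 12.5 CPM (-1.05 ± 0.05). Their TPM ratio was 0.539, 0.574 and 0.570 in NR cultures, against 2.06, 2.07 and 2.21 in ND cultures, so the order of the pair was opposite in the 2 conditions. The exact permutation p was 0.1, the smallest possible here. The ratios with gltS, with glt1 and between the dehydrogenases were chosen after their values were seen.

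All 5 genes annotated as urease or as its accessory proteins rose, against 35.7% of all genes tested. They make 4 of 4 if URE and the second urease model, which share reads, are counted as 1 gene. The accessory proteins load nickel into urease, and URED (NO14G02290) rose from 29.3 ± 1.59 to 63.1 ± 5.11 CPM (log2 change 1.11 ± 0.10). The nickel-delivering GTPase UREG (NO17G01380) rose from 186 ± 8.11 to 267 ± 8.36 CPM (0.52 ± 0.05). UREF (NO08G03880) rose from 15.0 ± 2.63 to 20.6 ± 0.811 CPM (0.45 ± 0.15, edgeR adjusted p = 0.0132). The urea-proton symporter DUR3 (NO29G01570), which carries urea into the cell, rose from 123 ± 8.81 to 478 ± 9.02 CPM, a log2 change of 1.96 ± 0.06, close in size to that of urease.

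A further model, NO02G06090, is also annotated as urease and rose from 98.9 ± 14.7 to 337 ± 6.81 CPM (log2 change 1.77 ± 0.07). It and URE hold 6 and 8 assembled transcripts numbered under a single locus, among 7 and 10 transcript models in all. The estimated counts of both were fractional in every library. Added to those of the neighbouring models NO02G06100 and NO02G06120 they summed to whole numbers within 0.01, for example 1047 in NR culture 1 and 4402 in ND culture 1, so the reads were divided among these 4 models. The level of URE alone is therefore uncertain, while the rise of the group is not affected by the division. URE took 51.9% to 60.9% of the group's counts in NR cultures, against 59.8% to 62.8% in ND cultures, and these ranges overlap. The TPM ratio of URE to NO02G06090 was 0.719 in NR and 0.817 in ND (geometric means, exact p = 0.3), a comparison also chosen after its values were seen. Summed as 1 gene, the 4 models rose from 254 ± 7.47 to 951 ± 46.5 CPM, a log2 change of 1.91 ± 0.05 (edgeR adjusted p = 8.78e-18).

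The deposited length of URE, an average over its transcript models that can move between libraries, was 6108, 6389 and 6472 bp in NR cultures, against 7015, 7208 and 6821 bp in ND cultures. The conditions did not overlap, with means of 6323 ± 191 and 7014 ± 193 bp (exact permutation p = 0.1). How many other genes had lengths without overlap was not counted. The TPM of URE is divided by an effective length, which is shorter than the deposited average, and the CPM is not divided by length. The length of GLN1-2 differed little, at 1272 ± 10.1 bp in NR and 1287 ± 6.06 bp in ND, and NO08G04050 has a single transcript model of 6712 bp.

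**Figure D5:**
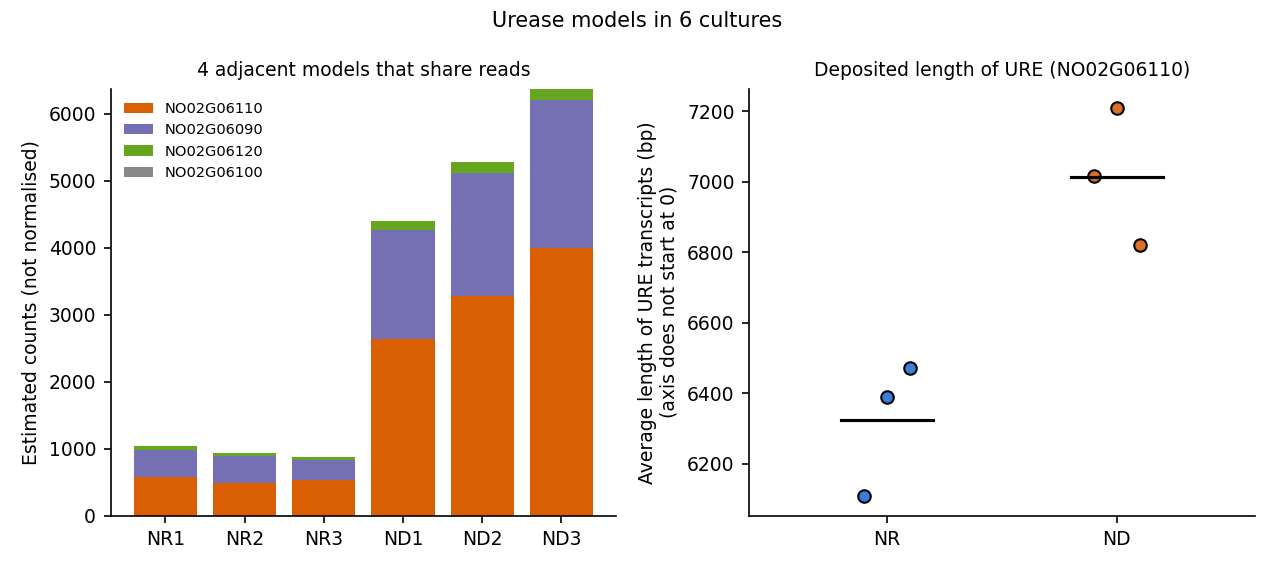
Estimated counts, not normalised, of the 4 adjacent models that share reads (left, stacked bars by culture) and the deposited average length of URE transcripts (right, points for cultures and lines for means, n = 3). The summed counts run from 883 to 1047 in NR and from 4402 to 6373 in ND, and the length from 6108 to 6472 bp in NR and from 6821 to 7208 bp in ND.

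Genes matched for the release of urea or ammonium numbered 8, some of them for earlier steps, such as the uricase. Of these 3 rose, 4 fell and 1 did not pass. Over all genes tested 35.7% were higher and 35.5% lower. With library totals alone 3 rose and 2 fell, against 5075 higher and 2149 lower of all 9329. The uricase NO02G02880, of the route of purine breakdown towards urea, fell from 243 ± 11.9 to 85.9 ± 3.42 CPM (log2 change -1.50 ± 0.06), with shared reads in 2 libraries. The allantoicase allc (NO08G00340), of the same route, fell from 41.5 ± 1.28 to 27.8 ± 3.12 CPM (-0.58 ± 0.11). The cyanate hydratase CYN (NO11G00510) fell by 0.38 ± 0.07 on the log2 scale, a call lost with library totals alone. The asparaginase ansA, which frees the amide of asparagine, has models on either side of this count. NO01G02630 rose from 16.7 ± 1.71 to 27.2 ± 1.32 CPM (0.69 ± 0.13), and NO01G02640 fell from 5.47 ± 0.932 to 2.92 ± 0.857 CPM (-0.93 ± 0.32), a call lost with library totals alone (edgeR adjusted p = 0.0845). Their fractional counts summed to a whole number in every library, from 73 to 100 in NR and from 155 to 180 in ND, so the level of each alone is uncertain. Summed as 1 gene they rose from 22.2 ± 2.29 to 30.1 ± 1.84 CPM, a log2 change of 0.43 ± 0.12 (edgeR adjusted p = 0.00434). The gene that did not pass was the arginase ARG1 (NO16G01720), of arginine breakdown to urea, at -0.16 ± 0.13 (edgeR adjusted p = 0.268). Its sign reversed with library totals alone (0.16). NO01G02640 and ARG1 lie outside the rule for named genes and were added after their values were seen.

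Other users of ammonium and glutamine rose in 3 of 3 cases, against 35.7% of all genes tested. The carbamoyl-phosphate synthase CPS1 (NO05G03910), which makes carbamoyl phosphate for arginine synthesis, rose from 518 ± 19.1 to 1018 ± 24.4 CPM (log2 change 0.97 ± 0.05). The asparagine synthetase ASN3 (NO18G01460), which moves the glutamine amide to aspartate, rose by 0.75 ± 0.06 and the related asnsd1 (NO06G00950) by 1.31 ± 0.09. In the ornithine and urea cycle 3 of 4 rose and 1 fell, against 35.7% higher and 35.5% lower of all genes tested. The argininosuccinate synthase argG (NO05G00910) rose from 138 ± 5.28 to 301 ± 1.66 CPM (1.12 ± 0.05), the ornithine transcarbamylase OTC (NO04G04600) by 0.65 ± 0.11 and the acetylglutamate kinase argB (NO30G01080) by 0.44 ± 0.06. The argininosuccinate lyase ASL (NO08G03940), which completes arginine, was at -0.21 ± 0.07 (edgeR adjusted p = 0.0112), and its sign reversed with library totals alone (0.11).

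Of 5 matched aminotransferases, which move nitrogen between glutamate and other amino acids, 2 rose, 1 fell and 2 did not pass. The shares over all genes tested were 35.7% higher and 35.5% lower. With library totals alone 4 rose and none fell, against 5075 higher and 2149 lower of all 9329. The alanine aminotransferase gpt (NO07G03820) rose from 195 ± 3.40 to 315 ± 4.07 CPM (log2 change 0.69 ± 0.05) and the aspartate aminotransferase aatA (NO07G01910) by 0.38 ± 0.07, with shared reads. The bifunctional aminotransferase PAT (NO03G04010) fell by 0.43 ± 0.08, a call lost with library totals alone, and the ornithine aminotransferase Oat (NO07G02440) had 93.9 ± 8.25 CPM in NR and 102 ± 5.39 CPM in ND. Its log2 change of 0.11 ± 0.08 (edgeR adjusted p = 0.196) became 0.43 with library totals alone (edgeR adjusted p = 4.64e-05). The NADP-dependent isocitrate dehydrogenase Idh2 (NO03G02920) is annotated as mitochondrial and makes 2-oxoglutarate, a substrate of glutamate synthase. Idh2 rose from 544 ± 21.5 to 976 ± 23.9 CPM (0.84 ± 0.05), and whether it supplies glutamate synthase was not tested.

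Genes with the most similar pattern were taken as those with the smallest Euclidean distance in log2 CPM, centred on each gene, over the 6 libraries, among 5252 genes with a description and at least 10 CPM. The choice mostly reflects the size of the difference between conditions, and the genes share all libraries. Nearest to GLN1-2 were a threonine aldolase, THA1 (NO21G01250, log2 change 0.81), an F-box protein (NO28G00020, 0.83) and the tryptophan synthase TRP-1 (NO21G00900, 0.76), at distances of 0.0420, 0.0608 and 0.0726. Nearest to the glutamate synthase were NCOA7 (NO20G00030, log2 change 1.48), a 6-phosphofructo-2-kinase (NO19G01850, 1.46) and the chaperonin subunit CCT2 (NO22G01820, 1.53), at 0.0867, 0.0889 and 0.106. Nearest to urease were the replication protein Orc1 (NO10G04060, log2 change 2.12), the diaminopimelate aminotransferase DAP (NO06G04310, 1.96), of lysine synthesis, and the flagellar radial spoke protein RSP5 (NO04G04610, 2.02), at 0.146, 0.155 and 0.185.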

How the data were processed

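Trizol-extracted total RNA went into Illumina libraries, per the labels' protocols, which do not state strandedness. Tools listed in the submitters' processing notes are STAR, StringTie, featureCounts, Picard, Trim Galore and edgeR. Their roles and versions and the build were not given in the sources used here. For each gene of a library the authors deposited an expected count, an estimated count that was not normalised and was whole within 0.005 for 79.6% to 80.9% of genes. TPM, FPKM, an average length and an effective length in bp are in the deposited tables too, per the file headers. The authors' deposited comparison gives the log2 change of each listed gene with its p-value and FDR. The reference table of 160 genes matched 0 gene IDs, so no coordinates or sequences are shown.

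Estimated counts were rounded and tested for ND against NR over all 9329 genes kept by filterByExpr, with edgeR 4.0.16 in R 4.3.3 (TMM factors, a quasi-likelihood test and Benjamini-Hochberg adjustment at 0.05), after a test of the code on simulated data. SEs were computed as the size of the log2 change divided by the root of F. Composition factors ran from 0.890 to 0.908 in NR and from 1.11 to 1.12 in ND, and the biological coefficient of variation was 0.0475. TPM ratios and lengths were compared with exact two-sided permutation tests. Alternatives were the replicate number as a block, other factors (upper-quartile, RLE or totals only), DESeq2 1.42.0, limma 3.58.1 on log2(FPKM + 1) or log2(FPKM + 0.1) where 3 libraries reached an FPKM of 1, no low-count filter or one of 10 CPM, a threshold of 0.01, a test against 1.5 times and leaving out each library. Added after seeing the data were the summed models, 2 other ways to match descriptions, and the matching of phrases from the start of a word itself, which keeps out folylpolyglutamate synthases and acetylornithine aminotransferase. The members, lists and rule for named genes were chosen with earlier results of these data known. By that rule the text names the 3 genes, all listed genes of their own enzyme groups, glutamate dehydrogenase and urea transport, up to 4 genes of smallest p in each other role, and the 3 genes nearest to each member. No gene matched the words for nitrogen-sensing PII proteins.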

Additional observations from a re-analysis of the deposited data

How the results depend on the processing

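The log2 fold changes of the 3 genes kept their direction and passed the test under every alternative tried, from 0.77 to 1.12 for GLN1-2, from 1.33 to 1.80 for the NADH glutamate synthase and from 1.91 to 2.37 for urease. With each library left out in turn they ran from 0.77 to 0.83, from 1.41 to 1.52 and from 2.00 to 2.10. The 3 TPM ratios kept their direction in all 8 alternatives each. Their differences ran from 0.65 to 0.72 for the glutamate synthase over GLN1-2. They ran from 1.02 to 1.25 for urease over GLN1-2 and from 0.32 to 0.57 for urease over the glutamate synthase. The number of genes higher in ND, 3333, became 5075 with library totals alone, 5090 and 5059 with limma on log2(FPKM + 1) and log2(FPKM + 0.1), and 1298 in the test against 1.5 times. The number lower, 3312, became 2149, 2031, 2019 and 1559 under the same settings in that order. In the pathway list 23 genes higher became 14 in the test against 1.5 times. The 8 lower became 3 with library totals alone, 2 with either limma fit and 2 in the test against 1.5 times. With each library left out the list had 21 to 23 genes higher and 6 to 8 lower. Same-numbered cultures deviated together with correlations of 0.02, 0.04 and 0.09 across genes, and differently numbered ones with -0.06 to 0.03. Although these values were low, 5 of 6 libraries correlated best with their own number. The main test did not pair the cultures, and the replicate block was run as an alternative. With the replicate block the log2 changes were 0.80, 1.48 and 2.05, 3298 genes were higher and 3292 lower, and the list had 23 higher and 8 lower. With the block the 3 TPM ratios had an exact p of 0.25, the smallest that 3 pairs allow. Counting depth did not limit the 3 genes, the lowest estimated count being 487 for urease in NR culture 2.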
